A study of Rattus norvegicus with 15 samples.

Results

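The 5 genes described here are markers of the response to stress in the endoplasmic reticulum (ER) and to oxidative stress: Hspa5, Ddit3 and Atf4 for ER and integrated stress, and Hmox1 and Nqo1 as targets of the transcription factor NRF2. They were taken by their Ensembl identifiers and not by a cut on any measured value, but with earlier results of these data known. They are 5 of the 30560 gene identifiers in each count table. RNA was counted in 15 libraries from primary oligodendrocytes, the myelin-making cells of the brain, grown from forebrain cortex of newborn Sprague-Dawley rats and kept for 3 days in maturation medium. There were 3 libraries each of total cell RNA (input) from control cells and from cells given oligomeric amyloid-β, 3 each of RNA immunoprecipitated (IP) with hnRNP A2 from control and amyloid-β cells, and 3 from an IgG IP labelled as a pool of both treatments. The file names of the IgG libraries carry the mark of amyloid-β alone, and the labels were followed. Replicates are numbered 2, 3 and 4. The labels give neither the final concentration of amyloid-β in the cultures nor the length of exposure.

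Proteins that fail to fold in the ER set off the unfolded protein response, which raises the synthesis of ER chaperones. One of its branches, shared with amino acid shortage and other stresses as the integrated stress response, slows translation and favours the translation of ATF4. NRF2 is held low by KEAP1 and, when oxidants or electrophiles disable KEAP1, switches on genes of detoxification and heme breakdown. Oligodendrocytes make large amounts of membrane protein and lipid in the ER, and are known as cells sensitive to both kinds of stress. Hspa5 (ENSRNOG00000018294) encodes BiP, the main chaperone of the ER lumen. Atf4 (ENSRNOG00000017801) encodes the transcription factor at the centre of the integrated stress response, and Ddit3 (ENSRNOG00000006789) encodes CHOP, a transcription factor that ATF4 induces and that is linked to cell death in prolonged stress. Hmox1 (ENSRNOG00000014117) encodes heme oxygenase 1, which breaks down heme, and Nqo1 (ENSRNOG00000012772) encodes a quinone reductase.

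Promoter sequence was printed for the ER and integrated stress genes, because Hspa5 was highest in the input library where Ddit3 and Atf4 were lowest, and because Ddit3 and Atf4 kept a similar ratio in all libraries. The bases are the 250 upstream of the RefSeq gene start in assembly GRCr8, plus strand in all 3, at chr3:38452766-38453015 for Hspa5, chr7:65001445-65001694 for Ddit3 and chr7:113684431-113684680 for Atf4. Capitals mark the ER stress response element in Hspa5 (CCAAT and CCACG with 9 bases of any kind between them), the CCAAT box on the reverse strand (ATTGG) in Ddit3, and TATAAA in Atf4.
Hspa5: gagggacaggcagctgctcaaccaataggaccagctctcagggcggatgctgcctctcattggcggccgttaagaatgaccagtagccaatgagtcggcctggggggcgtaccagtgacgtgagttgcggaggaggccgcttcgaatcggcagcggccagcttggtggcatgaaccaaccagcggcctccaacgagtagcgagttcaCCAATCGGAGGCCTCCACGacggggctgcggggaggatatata
Ddit3: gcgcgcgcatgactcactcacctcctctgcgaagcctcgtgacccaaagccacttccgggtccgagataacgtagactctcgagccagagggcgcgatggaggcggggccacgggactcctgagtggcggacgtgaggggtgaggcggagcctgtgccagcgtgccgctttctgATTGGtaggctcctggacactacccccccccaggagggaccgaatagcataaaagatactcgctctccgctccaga
Atf4: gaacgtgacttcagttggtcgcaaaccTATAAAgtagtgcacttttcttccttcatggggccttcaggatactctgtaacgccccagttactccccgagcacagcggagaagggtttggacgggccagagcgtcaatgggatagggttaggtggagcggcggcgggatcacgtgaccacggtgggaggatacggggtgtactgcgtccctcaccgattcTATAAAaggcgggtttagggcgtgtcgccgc

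Both strands of these windows were searched. The ER stress response element was found in Hspa5, 43 to 25 bases before the start, and in 19 of 27457 rat promoter windows of the same length (0.0692%). TGACGTG, the core of the element bound by XBP1, was found once in Hspa5 and in 1.59% of all windows. No exact match to either element was found in the Ddit3, Atf4 or Nqo1 window. On its reverse strand the Ddit3 window holds CCAAT and, at the spacing of the ER stress response element, GCACG in place of CCACG. The search allowed no mismatch, so near matches of this kind were not counted in any window. CCAAT alone, which overlaps the ER stress response element, was found in 34.2% of windows, among them those of Hspa5, Ddit3 and Nqo1. TATAAA was found in 13.2% of windows, among them those of Atf4 and Nqo1. The core of the antioxidant response element to which NRF2 binds, TGACNNNGC, was found in 10.2% of windows and not in that of Nqo1. The composite C/EBP-ATF element TGATGNAA was found in 3.27% of windows and in none of the 4 members searched. Hmox1 was not matched. A match is a match of letters and not a binding site. The search covered only the 250 bases upstream, so an element farther out would have been missed.

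Gene counts summed to between 14773400 and 25751522 per input library and between 28056346 and 33168494 per hnRNP A2 library. The IgG depth was lower, at 81463, 4096829 and 1895870 for replicates 2, 3 and 4. In IgG replicate 2 the members had only 0 to 55 counts each, and the limit that a count of 0 allows (3 counts) was 29.4 CPM (counts scaled to the same total of gene counts in each library), which covers counting error only. The 10 most abundant genes held 19.9% to 41.6% of gene counts in input and 6.05% to 8.59% in the hnRNP A2 libraries. Levels below are CPM on 1 scale for all 15 libraries, set with TMM factors (trimmed mean of M values). They compare a gene between libraries and not 1 gene with another, since transcript lengths were not used. In bulk RNA, fewer cells of a type and less RNA per cell cannot be told apart. The identifiers of oligodendrocyte, astrocyte and microglia markers were not matched to symbols, so the labelled cell type was not checked here.

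All 5 members had counts enough to be tested in every comparison. In input RNA, none of them changed with amyloid-β past the threshold, an edgeR adjusted p under 0.05 after Benjamini-Hochberg adjustment over all 13793 genes tested. The share of all genes called was 0%. Before adjustment, 188 genes had p under 0.05 with edgeR, 335 with DESeq2 and 210 with voom (run with library quality weights). Each of these tools called 0 genes. These fits leave out the pairing of same-numbered libraries. With a block on replicate number in edgeR, 1625 genes had p under 0.05. The lowest edgeR adjusted p was then 0.173, and 0 genes were called. Groups that did not overlap were seen for 5.9% of genes and for none of the members. Within this absence of calls, a single amyloid-β library stood apart for the ER and integrated stress genes, upward for Hspa5 and downward for Ddit3 and Atf4. Many other genes also stood apart upward in that library, as given below.

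Hspa5 lay at 177, 155 and 136 CPM in control input replicates 2, 3 and 4 and at 175, 533 and 182 CPM in amyloid-β input. The amyloid-β library numbered 3 was thus 2.92-fold above the highest other input library. Amyloid-β replicate 4 lay just above the highest control, and replicate 2 lay within the control range. Of 8884 genes with a mean of at least 10 CPM in input, 107 (1.2%) were as far above the other 5 inputs in that library, and 614 (6.91%) were at least 2-fold above them. The 10 most abundant genes held 19.9% of counts there, against 25.1% to 41.6% in the other input libraries, and the part of this in the Hspa5 value was not tested. The fitted log2 fold change of Hspa5 was 0.94 (SE 0.45, 95% interval -0.051 to 1.94, edgeR adjusted p = 0.954). Without amyloid-β input replicate 3 it was 0.18. A fit blocked on replicate number gave 0.72 (edgeR adjusted p = 0.226).

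Ddit3 stood at 89.6, 52.5 and 51.5 CPM in control input and 82.0, 27.5 and 53.4 CPM in amyloid-β input. Atf4 stood at 635, 447 and 464 CPM in control and 574, 246 and 431 CPM with amyloid-β. Both genes had their lowest level of all 15 libraries in amyloid-β input replicate 3, the library with the highest Hspa5. The share of all genes as far below the other inputs there was not counted. Both were highest in the library numbered 2 within each input group. Compared within the same number, Atf4 was lower with amyloid-β in 3 of 3 pairs, by log2 differences of -0.15, -0.86 and -0.11 for replicates 2, 3 and 4, a pattern that 16% of all tested genes showed. Ddit3 differed by -0.13, -0.93 and 0.054. Neither change passed: the fitted log2 fold change was -0.32 (SE 0.35, 95% interval -1.09 to 0.45) for Atf4 and -0.26 (SE 0.39, 95% interval -1.13 to 0.61) for Ddit3, each with an edgeR adjusted p of 0.954. The Ddit3 value changed sign without amyloid-β input replicate 3 (0.046) or control input replicate 2 (0.020), and that of Atf4 was -0.060 without amyloid-β input replicate 3.

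**Figure D1:**
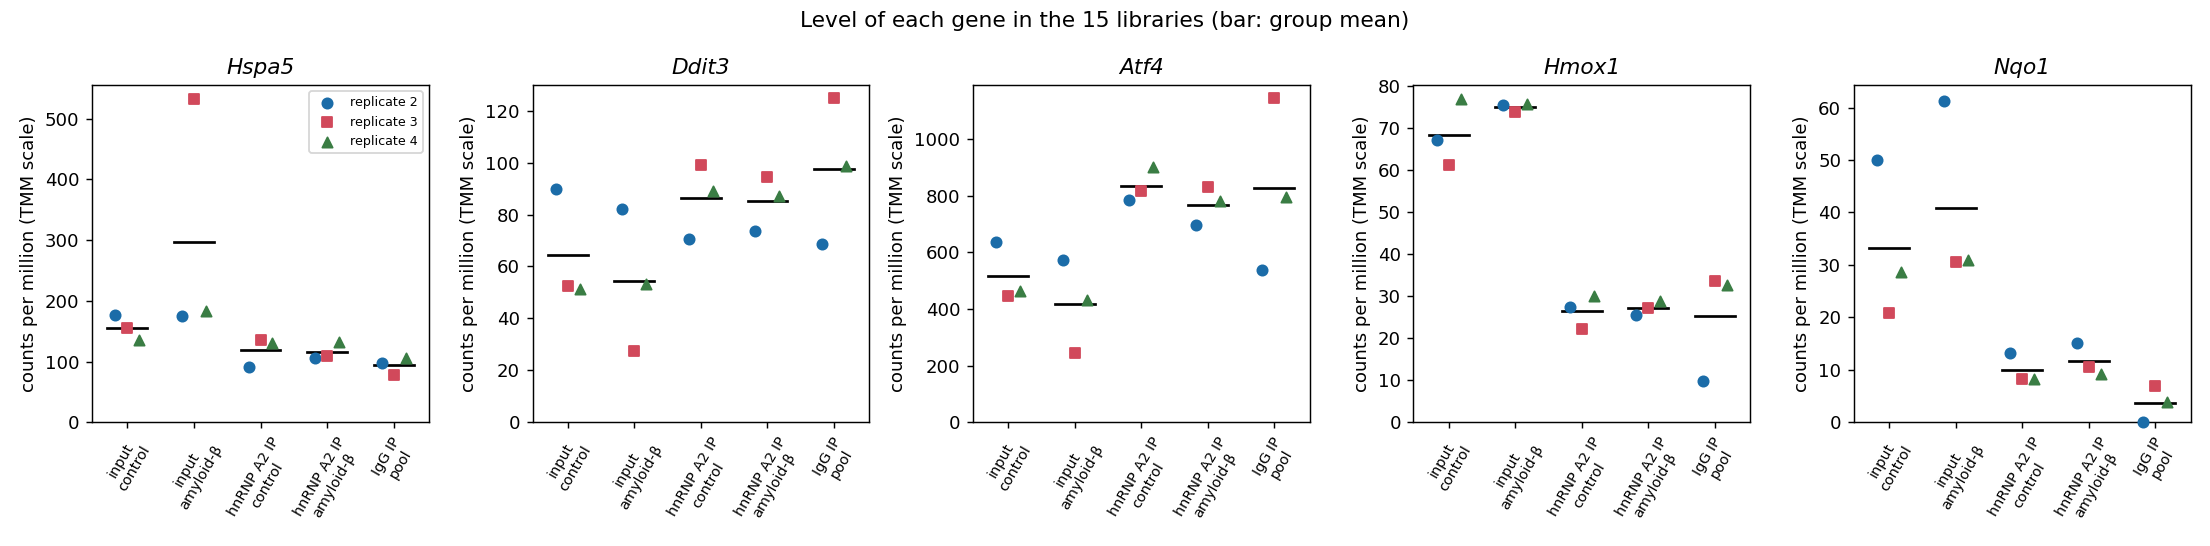
Level of each gene in CPM (TMM scale, linear axis from 0) in every library, by group, with the marker giving the replicate number and the bar the group mean. Hspa5 is highest at 533 CPM in amyloid-β input replicate 3, where Ddit3 (27.5 CPM) and Atf4 (246 CPM) are lowest, and Hmox1 and Nqo1 are lower in every immunoprecipitated library than in every input library.

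Hmox1 varied little in input. It was at 67.2, 61.2 and 76.9 CPM in control and at 75.5, 73.8 and 75.7 CPM with amyloid-β, where its coefficient of variation was 1.37%. The amyloid-β values lay inside the control range, so the groups overlapped. Its log2 fold change was 0.13 with a 95% interval of -0.42 to 0.67 (edgeR adjusted p = 0.956), so that neither a doubling nor a halving lay within the interval.

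Nqo1 was at 49.99, 20.8 and 28.7 CPM in control input and at 61.2, 30.6 and 30.9 CPM with amyloid-β. In each same-numbered pair the amyloid-β library was the higher, by log2 differences of 0.29, 0.56 and 0.11, as for 19% of all tested genes. Across the groups the values overlapped, since replicate 2 was high in both. The log2 fold change was 0.30 (SE 0.38, 95% interval -0.55 to 1.15, edgeR adjusted p = 0.954) and did not pass, nor with the replicate block (0.32, edgeR adjusted p = 0.605). Without amyloid-β input replicate 2 it was -0.071.

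In the hnRNP A2 immunoprecipitate, too, none of the 5 members changed with amyloid-β. The edgeR test without a block called 0% of 15118 genes, as DESeq2 and voom did. Before adjustment, p was under 0.05 for 42 genes with edgeR, 35 with DESeq2 and 133 with voom. With the replicate block in edgeR, 888 genes had p under 0.05. It called 1 gene, not a member (edgeR adjusted p = 0.00604). Non-overlapping groups were seen for 3.04% of genes and for no member. The high Hspa5 of amyloid-β input replicate 3 was not seen in the immunoprecipitate of the same number: Hspa5 was at 91.2, 136 and 131 CPM in control and 107, 108 and 132 CPM with amyloid-β. Its log2 fold change was -0.045 (SE 0.18, 95% interval -0.48 to 0.39, edgeR adjusted p = 1.00). Nor were the low input levels of Ddit3 and Atf4 in that library matched. Ddit3 was at 70.8, 99.3 and 89.2 CPM in control and 73.7, 94.5 and 87.1 CPM with amyloid-β, with a log2 fold change of -0.021 (95% interval -0.41 to 0.37). Atf4 was at 783, 818 and 901 CPM in control and 695, 830 and 780 CPM with amyloid-β, with a log2 fold change of -0.12 (95% interval -0.46 to 0.23). For these 3 genes the groups overlapped, and neither a doubling nor a halving lay inside the interval.

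Hmox1 in the hnRNP A2 libraries was at 27.3, 22.3 and 30.0 CPM in control and 25.4, 27.1 and 28.8 CPM with amyloid-β, overlapping (log2 fold change 0.031, 95% interval -0.32 to 0.38). Nqo1 was at 13.2, 8.25 and 8.21 CPM in control and 15.1, 10.5 and 9.27 CPM with amyloid-β. Here too Nqo1 was higher with amyloid-β in 3 of 3 same-numbered pairs, by 0.19, 0.35 and 0.17 on the log2 scale, as 13.4% of all tested genes were. The groups overlapped, because replicate 2 was the highest in each group, and the fitted log2 fold change of 0.23 (SE 0.28, 95% interval -0.42 to 0.88) had an edgeR adjusted p of 1.00, or 0.841 with the replicate block. Input and immunoprecipitate of 1 number were read as paired, so the pairs of the 2 kinds of library are not taken as separate evidence.

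**Figure D2:**
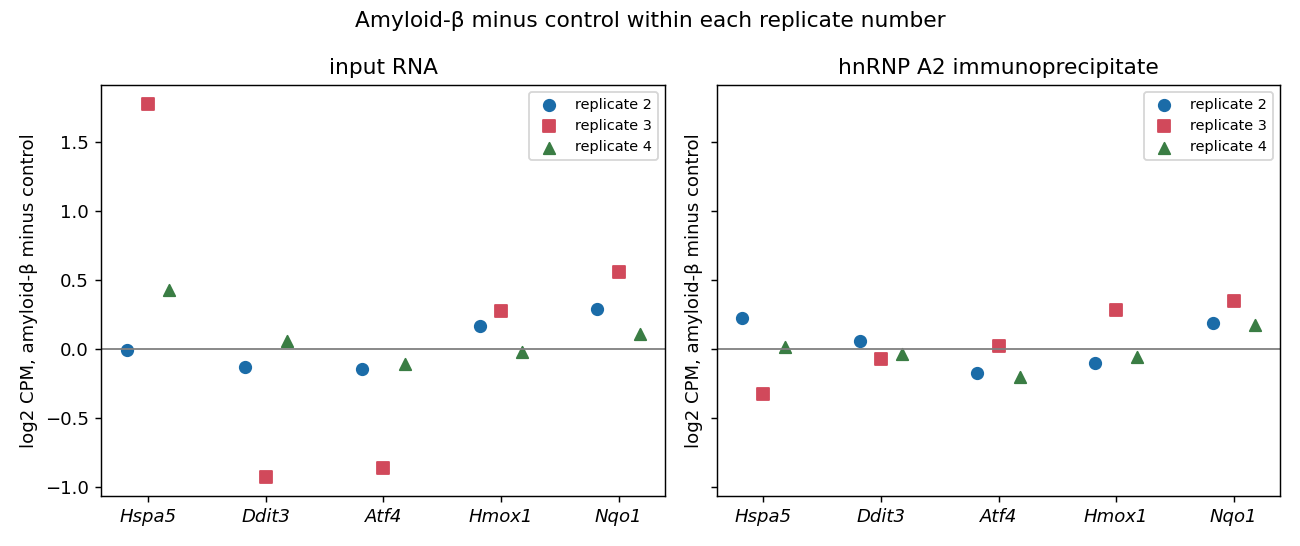
Difference in log2 CPM between the amyloid-β and the control library of the same replicate number, for input RNA (left) and the hnRNP A2 immunoprecipitate (right). Replicate 3 gives the largest differences in input for the ER and integrated stress genes (1.78 for Hspa5, -0.93 for Ddit3 and -0.86 for Atf4). Nqo1 lies above 0 in 3 of 3 pairs of each kind, as 19% of genes did in input and 13.4% in the immunoprecipitate. Input and immunoprecipitate of the same number are paired and not separate evidence.

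The NRF2 targets Hmox1 and Nqo1 took a smaller share of the hnRNP A2 immunoprecipitate than of input in both treatments. In amyloid-β cells Hspa5 was lower than input as well and Atf4 was higher, while Ddit3 passed in neither treatment. In control cells 2 of 5 members differed from input past the threshold, against 37.4% of the 15303 genes tested, and in amyloid-β cells 4 of 5 did, against 39.1%. The median log2 fold change of the 5 was -0.37 in control and -1.39 in amyloid-β, against 0.023 and -0.012 over all genes tested. Both medians are the values of Hspa5, the middle member of a list that went both ways. They were -0.37 and -0.61 without amyloid-β input replicate 3, and -0.51 and -0.57 without all libraries numbered 3. A smaller share need not mean less RNA, since levels are relative within a library. Scaling by library size alone moved the median of all genes to 0.65 in control and 0.48 in amyloid-β, and changed the split of called genes from 2908 higher and 2814 lower to 5598 and 1042 in control, and from 2845 and 3137 to 4766 and 1591 in amyloid-β.

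Hmox1 fell in the immunoprecipitate of both treatments. Its input and hnRNP A2 levels, given above, did not overlap. The lowest input library was at 61.2 CPM and the highest hnRNP A2 library at 30.0 CPM. Within a treatment, such non-overlap was seen for 51.7% of all genes in control and 48% in amyloid-β. These shares apply to Nqo1 and Atf4 below as well, and the share over both treatments together was not counted. The loss was 2.57-fold without amyloid-β, as a log2 fold change of -1.36 (SE 0.18) with an edgeR adjusted p of 0.00015, and 2.79-fold with it (-1.48, SE 0.18, edgeR adjusted p = 7.46e-05). Library by library the log2 difference was much the same, at -1.30, -1.45 and -1.36 in control replicates 2, 3 and 4 and -1.57, -1.44 and -1.39 in those with amyloid-β. By library sizes alone it was -0.71 in control and -0.99 in amyloid-β, and still passed.

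Nqo1 fell further. Each input library, from 20.8 CPM upward, lay above each hnRNP A2 library, of which the highest had 15.1 CPM. The decrease was 3.31-fold without amyloid-β, as a log2 fold change of -1.73 (SE 0.37) with an edgeR adjusted p of 0.0029, and 3.50-fold with it (-1.81, SE 0.37, edgeR adjusted p = 0.00203). In same-numbered libraries the differences ran from -1.32 to -1.91 in control and from -1.53 to -2.01 with amyloid-β. By library sizes alone they were fitted at -1.05 and -1.31, past the threshold in both.

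Atf4 moved the other way. Its hnRNP A2 libraries, from 695 CPM upward, all lay above its input libraries, of which the highest had 635 CPM. In amyloid-β cells it rose 1.84-fold over input (log2 fold change 0.88, SE 0.27, edgeR adjusted p = 0.0209). Without amyloid-β hnRNP A2 replicate 3 or 4 the call was lost (0.83 and 0.88, edgeR adjusted p = 0.061 and 0.058), and without all libraries numbered 3 the value was 0.57 (edgeR adjusted p = 0.115). In control cells Atf4 missed the threshold at 0.70 (SE 0.27, edgeR adjusted p = 0.057) and passed it with the replicate block (0.73, edgeR adjusted p = 0.0221, 48.8% of all genes called). It was also called by DESeq2 (0.71, adjusted p = 0.0262, 41.1% of genes) and by voom (0.74, adjusted p = 0.00641, 44.6% of genes), and by edgeR with library sizes alone (1.35, adjusted p = 0.00172, 43.4% of genes). The edgeR call was made as well without control input replicate 2 (0.87), without amyloid-β input replicate 2 (0.71) or without amyloid-β input replicate 3 (0.71).

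Ddit3 had log2 fold changes over input of 0.43 in control (SE 0.33, 95% interval -0.27 to 1.14, edgeR adjusted p = 0.321) and 0.65 in amyloid-β (SE 0.33, 95% interval -0.053 to 1.36, edgeR adjusted p = 0.132), and passed in neither. Its groups overlapped in both treatments, because the input libraries numbered 2 (89.6 and 82.0 CPM) lay above the hnRNP A2 libraries of that number (70.8 and 73.7 CPM). In replicates 3 and 4 the immunoprecipitate was the higher, by 0.92 and 0.79 in control and 1.78 and 0.70 in amyloid-β on the log2 scale. Without amyloid-β input replicate 2 the amyloid-β value was 1.04 and was called (edgeR adjusted p = 0.0224). Called too was the voom value in amyloid-β (0.64, adjusted p = 0.0220, 53.2% of genes). By library sizes alone Ddit3 was at 1.07 in control and 1.14 in amyloid-β and passed in both, where 43.4% and 41.5% of genes did.

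Hspa5 was lower than input in amyloid-β cells, 2.61-fold (log2 fold change -1.39, SE 0.38, edgeR adjusted p = 0.0111). In control cells the value of -0.37 (SE 0.37, 95% interval -1.18 to 0.43, edgeR adjusted p = 0.461) missed the threshold. The amyloid-β value leans on input replicate 3: without that library it was -0.61 and still called (edgeR adjusted p = 0.04), and without all libraries numbered 3 it was -0.57 and not called (edgeR adjusted p = 0.108). By library sizes alone it was -0.90 and not called (edgeR adjusted p = 0.0756), and the control value turned to 0.25. The amyloid-β input and hnRNP A2 levels did not overlap, while those in control did by less than 1 CPM. Non-overlap between input and immunoprecipitate was seen for 51.7% of all genes in control and 48% in amyloid-β.

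The difference in recovery between treatments was tested directly as an interaction, and no member passed. Of 15303 genes, 0% were called by edgeR, DESeq2 or voom. Unadjusted p was under 0.05 for 125, 146 and 298 genes with these tools in turn. With the replicate block in edgeR it was 279 genes, and 0 were called. For Hspa5 the interaction was -1.01 (SE 0.53, 95% interval -2.15 to 0.12, edgeR adjusted p = 1.00), and -0.065 without all libraries numbered 3. A call in amyloid-β and not in control therefore does not show that Hspa5 recovery differed between them. For Hmox1 the interaction was -0.12 with a 95% interval of -0.67 to 0.43, and for Atf4, Ddit3 and Nqo1 it was 0.18, 0.22 and -0.083, with intervals that reached past a 2-fold change in at least 1 direction.

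**Figure D3:**
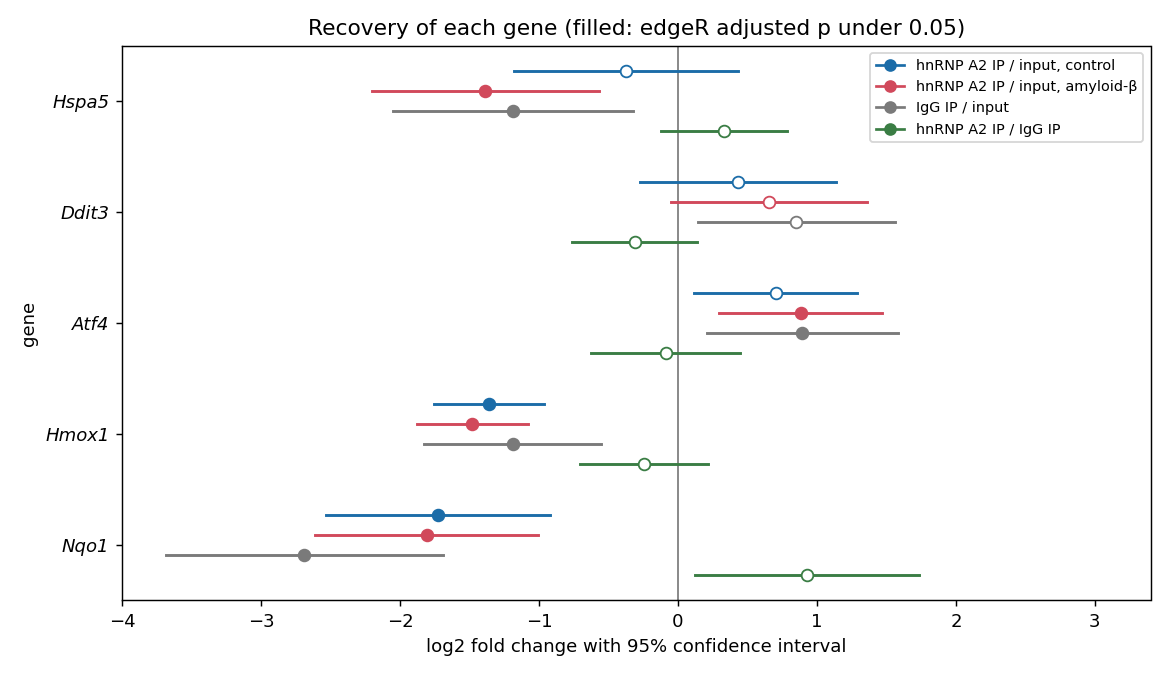
Fitted log2 fold change with its 95% confidence interval for each gene, for hnRNP A2 over input in each treatment, IgG over input, and hnRNP A2 over IgG; filled points have an edgeR adjusted p under 0.05. Hmox1 and Nqo1 lie below 0 in every comparison with input, Atf4 lies above 0 in each, and no point for hnRNP A2 over IgG is filled.

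The IgG libraries measure what the procedure brings down without the hnRNP A2 antibody. No member was called between hnRNP A2 and IgG, against 13.6% of 15304 genes. That share leaned on single libraries: the 2084 genes called became 21 when IgG replicate 4 was left out. Leaving out replicate 3 or 4 of the control hnRNP A2 libraries gave 1150 and 1063, and leaving out those of the amyloid-β ones gave 1360 and 969. One member, Nqo1, had an unadjusted p under 0.05 with edgeR, as did 4649 of all genes, and DESeq2 and voom also called 0 members. With the replicate block 35.2% of all genes were called, and 1 member, Hspa5, was higher with hnRNP A2 (0.42, edgeR adjusted p = 0.0483). The fit without a block counts all 6 hnRNP A2 libraries as separate samples, although same-numbered ones were paired. Non-overlap between the 2 antibodies was seen for 25.8% of genes, and among the members for Nqo1. Each member's IgG values follow, and all of them from replicate 2 rest on few counts.

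In IgG replicates 2, 3 and 4, Hspa5 was at 97.9, 78.2 and 106 CPM, from 10, 358 and 214 counts. This overlapped the hnRNP A2 libraries, which began at 91.2 CPM, and the log2 fold change of hnRNP A2 over IgG was 0.33 (SE 0.21, 95% interval -0.12 to 0.78, edgeR adjusted p = 0.307). Ddit3 was at 68.5, 125 and 98.6 CPM with IgG (-0.31, SE 0.21, 95% interval -0.76 to 0.14, edgeR adjusted p = 0.338). Atf4 was at 538, 1146 and 796 CPM, on both sides of the whole hnRNP A2 range, with a difference of -0.087 (SE 0.24, 95% interval -0.62 to 0.45, edgeR adjusted p = 0.86) that turned to 0.25 without IgG replicate 3. For these 3 genes a difference of more than 2-fold lay outside the interval.

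Hmox1 with IgG was at 33.7 and 32.6 CPM in replicates 3 and 4, slightly above each hnRNP A2 library, and at 9.79 CPM from a single count in replicate 2. Its log2 fold change for hnRNP A2 over IgG was -0.24 (SE 0.21, 95% interval -0.70 to 0.22, edgeR adjusted p = 0.476). Nqo1 had 32 and 8 counts in IgG replicates 3 and 4 (6.99 and 3.95 CPM), below each hnRNP A2 library, and 0 counts in replicate 2, which at that depth still allows 29.4 CPM. It had the highest value of the members against IgG, 0.93 (SE 0.37, 95% interval 0.12 to 1.74), but did not pass (edgeR adjusted p = 0.115); the value ran from 0.70 to 1.56 with single libraries left out.

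IgG itself differed from input for 4 of 5 members, against 30.6% of 14205 genes, and IgG did not overlap input for 31.6% of genes, Hspa5, Hmox1 and Nqo1 among them. Without IgG replicate 4 the 4341 genes called became 2193, and the members called 2. These comparisons share the input libraries, so their values are given side by side only. Hmox1 and Nqo1 were lower in IgG than in input, with log2 fold changes of -1.19 (SE 0.30, edgeR adjusted p = 0.00781) and -2.69 (SE 0.47, edgeR adjusted p = 0.000684). Hspa5 was also lower, at -1.19 (SE 0.41, edgeR adjusted p = 0.0367), a call that was lost without IgG replicate 3 or 4 (-1.12 and -1.40, edgeR adjusted p = 0.122 and 0.0822). Against the control inputs alone Hspa5 was at -0.70 and not called (edgeR adjusted p = 0.278). Atf4 was higher, at 0.90 (SE 0.32, edgeR adjusted p = 0.0475), and lost the call without IgG replicate 3 (0.49) or IgG replicate 4 (0.84) or without any of 5 input libraries, amyloid-β replicate 2 being the exception. Ddit3 was at 0.85 (SE 0.33, edgeR adjusted p = 0.0638), short of the threshold. It was called without control input replicate 2 (0.98) or amyloid-β input replicate 2 (1.03), by voom (0.87, adjusted p = 0.0208, 37.2% of genes called) and with all 15 libraries in 1 fit (0.81, edgeR adjusted p = 0.0429). By library sizes alone the median of all genes moved from -0.11 to 0.33 and the split of called genes from 2025 higher and 2316 lower to 3385 and 1213, which is 32.4% of genes. Hmox1 (-0.76) and Hspa5 (-0.72) then lost the call, and Ddit3 (1.30) gained it.

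Ratios of counts within a library do not depend on scaling, and they showed which members kept step. Ddit3 over Atf4 lay between 0.0903 and 0.143 in all 15 libraries, also in amyloid-β input replicate 3, where it was 0.112. How many other genes kept as steady a ratio to Atf4 was not counted. Hspa5 over Atf4 lay at 0.278 to 0.423 in 5 input libraries and at 2.17 in amyloid-β input replicate 3, against 0.116 to 0.170 with hnRNP A2 and 0.0683 to 0.182 with IgG. Hmox1 over Atf4 was 0.106 to 0.301 in input and 0.0272 to 0.0369 in the hnRNP A2 libraries. For these latter 2 ratios, input did not overlap the immunoprecipitates. Hmox1 over Nqo1 was not constant within input: it was 1.34 and 1.23 in the libraries numbered 2 and 2.41 to 2.95 in the others, where Nqo1 was lower.

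**Figure D4:**
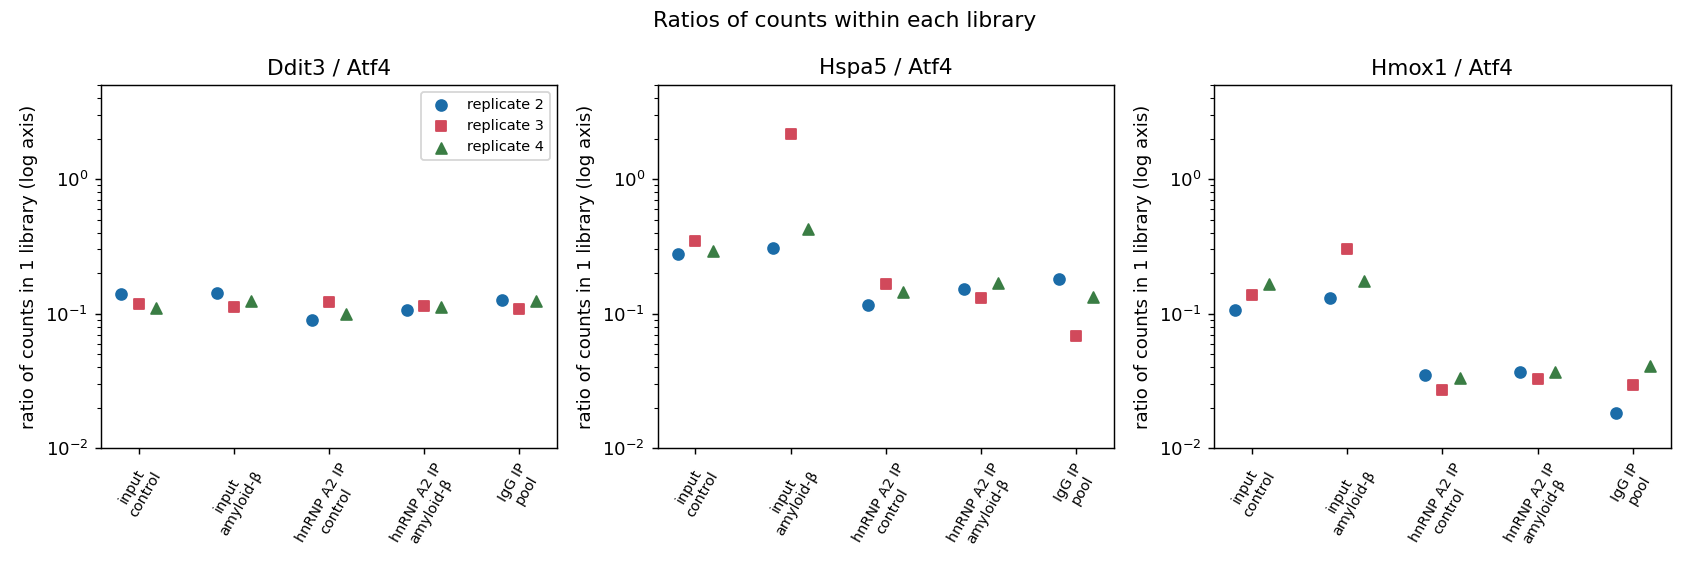
Ratio of the counts of 2 genes within each library (log axis), by group, for Ddit3 over Atf4, Hspa5 over Atf4 and Hmox1 over Atf4. Ddit3 over Atf4 stays between 0.0903 and 0.143, while the other ratios are higher in every input library than in every immunoprecipitated library, and Hspa5 over Atf4 reaches 2.17 in amyloid-β input replicate 3.

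The order of group levels summarises the spread. Hspa5 and Nqo1 ranked from amyloid-β input through control input and the hnRNP A2 groups to IgG, as did Hmox1. Control hnRNP A2 came before amyloid-β hnRNP A2 for Hspa5 and after it for Hmox1 and Nqo1. For Hmox1 and Nqo1 the step from control input to the hnRNP A2 groups had no overlap; for Nqo1 the last step, to IgG, had none either, with the limit for IgG replicate 2 given above. For Hspa5, neighbours overlapped down to the last step, where amyloid-β hnRNP A2 (lowest 107 CPM) lay just above IgG (highest 106 CPM). Ddit3 ran the other way, from IgG at 97.4 ± 28.3 CPM (SD, n = 3) to amyloid-β input at 54.3 ± 27.3 CPM (SD, n = 3), with overlap at each step. Atf4 was highest in control hnRNP A2 at 834 ± 60.2 CPM (SD, n = 3) and lowest in amyloid-β input at 417 ± 165 CPM (SD, n = 3), and its neighbours were separated only between amyloid-β hnRNP A2 and control input.

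The pattern over the 12 input and hnRNP A2 libraries was compared with those of 9030 other genes, as the root mean square difference of log2 CPM after centring each gene on its own mean. Among members, Ddit3 and Atf4 were closest, at 0.18, then Hmox1 and Nqo1 at 0.46, while Atf4 and Nqo1 were farthest apart at 1.35. The closest gene overall was ENSRNOG00000009281 for Atf4 (0.0869), ENSRNOG00000068327 for Ddit3 (0.11), ENSRNOG00000048733 for Hmox1 (0.118) and ENSRNOG00000057623 for Hspa5 (0.151). These compare with a spread about their own mean of 0.53, 0.51, 0.72 and 0.62 for the 4 members. The files do not pair these identifiers with names. ENSRNOG00000057623 had means of 23.3 and 44.7 CPM in control and amyloid-β input and 18.8 and 18.6 CPM in the hnRNP A2 libraries, as Hspa5 had 156 and 297 CPM in input and 119 and 116 CPM there.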

How the data were processed

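The authors deposited raw read counts, 1 whole number per Ensembl identifier and library. The tools named per the submitters' processing notes, with no role stated, are DESeq2, R 4.2.2, HTSeq and STAR 2.7.1. Build, annotation and strand setting are not named there, which leaves overlapping and antisense genes uncertain. Per the labels' protocols, libraries were made from 4 to 10 ng of RNA with a stranded low-input kit. The 5 summary rows that name no gene, 65.5% to 91.4% of records, were left out. Symbols of the members came with the definition of the set; 0 of 30560 identifiers matched the RefSeq table (GRCr8), so the other pathway genes and cell type markers were not analysed here. Promoter windows are RefSeq's, matched by symbol for 4 of 5 members. No coordinates of the counted genes are given.

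Tests used edgeR 4.0.16 in R 4.3.3 (TMM, default expression filter, quasi-likelihood F test, Benjamini-Hochberg over all genes at 0.05), without a replicate term; the SE is the log2 fold change over the square root of F. Log2 CPM used a prior count of 2. Amyloid-β comparisons used their own 6 libraries, hnRNP A2 over input 12, and comparisons with IgG 9. DESeq2 1.42.0, limma 3.58.1 with voom, other scalings and filters, all 15 libraries in 1 fit, a replicate block and each library left out were alternatives. Every voom result here used quality weights, which give outlying libraries less weight. Leaving out all libraries numbered 3 was added after seeing the data. On simulated data of the input comparison (13549 genes), 80% of 4-fold and 9% of 2-fold changes were recovered. For hnRNP A2 over IgG (14960 genes) it was 95% and 32%. The changes were set only in genes with a mean of at least 10 CPM. The simulated libraries were drawn without a replicate effect. Deviations of same-numbered libraries from their group means correlated at 0.335 to 0.576 between treatments in input, 0.533 to 0.795 in the hnRNP A2 libraries, 0.15 to 0.57 between input and hnRNP A2 and 0.124 to 0.25 between hnRNP A2 and IgG, so the numbers were read as pairing these. Between IgG and control input the correlations were 0.072 to 0.102, above those of differently numbered libraries (at most 0.017). Between IgG and amyloid-β input they were -0.059 to 0.091, against up to 0.118 for differently numbered ones. IgG and input were therefore not read as paired, though the control inputs leave this unsure. Differently numbered libraries reached 0.072 between treatments in input and 0.26 in the hnRNP A2 libraries, below the same-numbered values. They reached 0.281 between input and hnRNP A2 and 0.142 between hnRNP A2 and IgG, each with amyloid-β hnRNP A2 libraries. These overlap the same-numbered ranges, so the pairing is less sure there. Within each group the libraries differed by more than sampling noise. The design text calls the replicates biological. The members, lists and tests were chosen with earlier results of these data known. Genes named are the members and, for 4 of them, the gene of closest pattern.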

Additional observations from a re-analysis of the deposited data

How the results depend on the processing

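Amyloid-β changed 0 members in input, 0 in the hnRNP A2 libraries and 0 in the interaction under every alternative run, with 0 to 0 when single libraries were left out. The losses of Hmox1 and Nqo1 over input in both treatments kept their call under every one. With library sizes alone the members called over input in control went from 2 to 4, and the genes from 5722 to 6640 of 15303. With single libraries left out it was 2 to 3 members and 4234 to 6613 genes. In amyloid-β 4 members and 5982 of 15303 genes were called, and 2 members and 4867 genes without all libraries numbered 3. With single libraries left out it was 3 to 5 members and 4243 to 6104 genes there. Against IgG 0 members and 2084 of 15304 genes were called, and 1 member and 5392 genes with the replicate block. With single libraries left out it was 0 to 0 members and 21 to 2428 genes. For IgG over input 4 members and 4341 of 14205 genes were called. Against control inputs alone it was 2 members and 3201 genes, and without all libraries numbered 3 it was 2 members and 3190 genes. With single libraries left out it was 2 to 5 members and 2193 to 4806 genes. Among the members, the replicate block changed no other call than Atf4 in control and Hspa5 against IgG, besides Ddit3 for IgG over input (1.03, edgeR adjusted p = 0.0126). In that last comparison the numbers were not read as pairing the libraries.

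Some log2 fold changes, none called, changed sign. Library sizes alone gave 0.25 for Hspa5 over control input, and voom gave 0.088 for the Nqo1 interaction. Without all libraries numbered 3, the amyloid-β change in the hnRNP A2 libraries was 0.11 for Hspa5, 0.015 for Ddit3 and -0.074 for Hmox1, the Atf4 interaction was -0.030 and Atf4 over IgG was 0.24. With single libraries left out, the amyloid-β change in input ran from -0.65 to 0.046 for Ddit3 and from -0.071 to 0.69 for Nqo1. In the hnRNP A2 libraries it ran from -0.20 to 0.057 for Hspa5, -0.14 to 0.088 for Ddit3, -0.082 to 0.12 for Hmox1 and -0.0082 to 0.51 for Nqo1. The interaction ran from -0.084 to 0.61 for Ddit3, -0.067 to 0.45 for Atf4 and -0.49 to 0.29 for Nqo1, and Atf4 over IgG from -0.29 to 0.25. The cause was not tested. Depth limits the IgG values, above all those of Nqo1.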
